A study of Mus musculus with 6 samples.

Results

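The genes described here are 9 ligands of the CXC chemokine family, Cxcl1, Cxcl2, Cxcl5, Cxcl9, Cxcl10, Cxcl12, Cxcl13, Cxcl14 and Cxcl16, and the chemokine receptor gene Cxcr3, in whole mammary tumours. They were chosen by name from the rows of the array that are annotated with exactly 1 gene, and all 10 of these genes, out of 19937 genes in all, were measured by a single row each. The tumours came from 6 female FVBN mice carrying the MMTV-PyMT transgene, in which a viral promoter active in mammary epithelium expresses the polyoma middle T oncoprotein. The mice were 75 to 90 days old when assessed before dosing, and 1 tumour was taken from each. The Tumor.DMSO group (3 mice) received the DMSO vehicle and the Tumor.TMP195 group (3 mice) received TMP195, an inhibitor of class IIa histone deacetylases, at 50 mg/kg once a day into the abdomen. The labels give 5 days of dosing in one place and 2 weeks in another. Levels are log2 array intensities, and a difference of 1 on this scale is 2-fold. A gene's level was compared between tumours and never with the level of another gene, since probes differ in brightness.

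CXC chemokines are small secreted proteins that draw leukocytes along gradients by binding receptors on their surface. Ligands that carry a glutamate-leucine-arginine motif, among them Cxcl1, Cxcl2 and Cxcl5, act through Cxcr2 on neutrophils and are induced by NF-kappaB downstream of interleukin-1 and tumour necrosis factor. Cxcl9 and Cxcl10 are induced by interferon and attract activated T cells and natural killer cells that carry Cxcr3. Cxcl12, the ligand of Cxcr4, and Cxcl14 are made largely by stromal and epithelial cells, and Cxcl13 draws B cells through Cxcr5.

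No difference between the TMP195 and vehicle tumours passed the test in any of the 10 genes. With limma fitted across all genes, 0 of 10 passed an adjusted p of 0.05, against 0.0% of all genes, and the adjusted p was 1.0 for each. At an unadjusted p under 0.05 limma also gave 0 of 10, where 2.52% of all genes lay. Some alternatives gave members at that level, though none past the adjusted test: Cxcl13 with the replicate number as a block, with array weights, without vehicle tumour 2 and without TMP195 tumour 3, Cxcl10 without vehicle tumour 1 or TMP195 tumour 1, and Cxcl14 without vehicle tumour 1. In no member did the 3 TMP195 tumours lie apart from the 3 vehicle tumours, whereas 6.68% of all genes had groups without overlap. The 95% moderated interval of the difference held 0 in 10 of 10. The estimates were higher under TMP195 in 6 genes and lower in 4, with a median difference of 0.09, beside -0.0014 over all genes. That median was -0.045 without TMP195 tumour 2 and -0.088 without both that tumour and vehicle tumour 2. The median half-width of the members' intervals was 0.45, beside 0.30 over all genes, so differences of the size seen here could not be told from 0 with 3 tumours in each group.

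What the 10 genes did show was variation from tumour to tumour. The levels spanned at least 2-fold over the 6 tumours in 4 of the 10 members (Cxcl5, Cxcl10, Cxcl12 and Cxcl13), or 40.0%, beside 7.65% of all genes. TMP195 tumour 2 was at one end of the span in all 4. The other 5 tumours spanned less than 2-fold in each: 2.28 to 3.18 in Cxcl5 and 3.70 to 4.24 in Cxcl10. They ran from 5.66 to 6.31 in Cxcl12 and from 4.70 to 5.29 in Cxcl13. TMP195 tumour 2 held the highest level of 7 of the 10 members, namely Cxcl1, Cxcl5, Cxcl9, Cxcl10, Cxcl16, Cxcr3 and Cxcl12, and the lowest level of Cxcl13. Over all genes that tumour was highest in 25.4% and lowest in 22.4%. It also stood apart in overall expression, with a first principal component score of -44.6 against -2.11 to 15.5 in the other 5 tumours, and vehicle tumour 2 had the extreme score of the second component, 30.7. Each member's difference is therefore plotted below with and without these tumours, and such values are given in the text for most members.

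**Figure D1:**
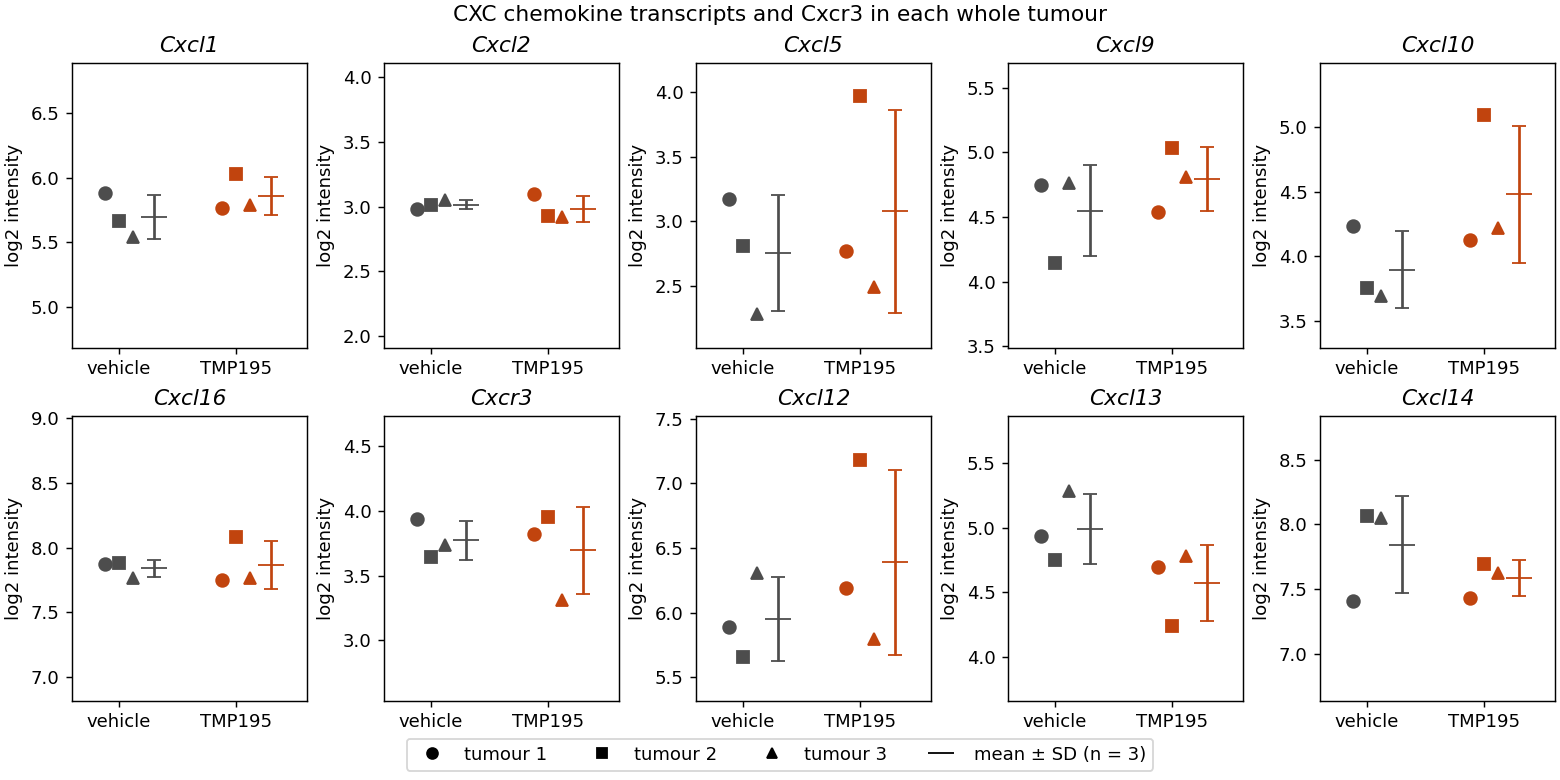
Log2 intensity of the 10 genes in each tumour (circle, square and triangle for tumours 1, 2 and 3 of a group), with the mean and SD of the 3 tumours beside the points. All panels span the same height in log2 units, and the square of the TMP195 group lies highest in Cxcl1, Cxcl5, Cxcl9, Cxcl10, Cxcl16, Cxcr3 and Cxcl12.

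The neutrophil-attracting ligands come from a single cluster. In the RefSeq gene table of assembly GRCm38.p6, Cxcl5, Ppbp, Pf4, Cxcl3, Cxcl15, Cxcl1 and Cxcl2 follow each other on chromosome 5 with no other protein-coding gene between them. The promoters of Cxcl1, Cxcl2 and Cxcl3 are shown because they share an NF-kappaB-like element. In capitals are the matches to GGGANNTTC, searched on both strands in the 250 bases before the gene's start. In each of these 3 promoters a match on one strand overlaps a match on the other, and the capitals are the same 11 letters in all 3. The sequences are from RefSeq, 120 bases up to the last base before the start, 5′ to 3′ on the strand of the gene, which is the plus strand in all 3: chr5:90891125-90891244 for Cxcl1, chr5:90903779-90903898 for Cxcl2 and chr5:90785981-90786100 for Cxcl3.
Cxcl1: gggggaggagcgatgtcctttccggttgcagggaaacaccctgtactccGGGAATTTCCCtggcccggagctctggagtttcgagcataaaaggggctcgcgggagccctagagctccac
Cxcl2: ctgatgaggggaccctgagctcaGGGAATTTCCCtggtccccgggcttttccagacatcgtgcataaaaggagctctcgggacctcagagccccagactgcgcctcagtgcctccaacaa
Cxcl3: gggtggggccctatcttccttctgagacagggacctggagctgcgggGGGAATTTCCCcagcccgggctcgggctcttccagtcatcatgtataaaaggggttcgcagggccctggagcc
GGGANNTTC is found in 3.23% of the 32851 promoters in the table over the same 250 bases. The motifs were set after the promoters were seen, and a match describes letters only.

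Cxcl1, the mouse counterpart of the human GRO ligands, was 5.88, 5.67 and 5.54 under vehicle (tumours 1, 2 and 3) and 5.76, 6.03 and 5.79 under TMP195 (tumours 1, 2 and 3). The groups overlapped, since vehicle tumour 1 lay above TMP195 tumours 1 and 3. The means were 5.70 ± 0.17 (SD, n = 3) and 5.86 ± 0.15 (SD, n = 3), a difference of 0.16 with an interval of -0.14 to 0.46. It was 0.077 without TMP195 tumour 2 and 0.062 without both tumours that stood apart.

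Cxcl5 varied most of the 10 genes, with a span of 1.69. It was 3.18, 2.81 and 2.28 under vehicle and 2.77, 3.97 and 2.49 under TMP195. Only TMP195 tumour 2 exceeded the vehicle group, and the other TMP195 tumours lay inside its range. The difference of 0.32 (interval -0.64 to 1.28) turned to -0.12 without TMP195 tumour 2 and to -0.097 without both tumours. The row was dim, at percentile 15.9 of mean intensity over all genes, and the files carry no detection call, so how far it rose above background is not known.

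Cxcl2, a ligand that activated macrophages release, differed by -0.03 (interval -0.25 to 0.18) and spanned only 0.18 over the 6 tumours. It was 2.98, 3.01 and 3.05 under vehicle and 3.10, 2.93 and 2.92 under TMP195, at percentile 16.9 of mean intensity. The deviation of TMP195 tumour 2 from the median of the other 5 tumours was -0.080 in Cxcl2, 0.26 in Cxcl1 and 1.19 in Cxcl5. Cxcl2 and Cxcl5 were both dim, so these values do not settle whether neighbours in the cluster moved together.

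The other ligands of the cluster were dim too. Cxcl3 (-0.03, interval -0.31 to 0.26), the platelet ligand gene Ppbp (0.02, -0.31 to 0.35) and Cxcl15, a ligand known from lung epithelium (-0.06, -0.60 to 0.49), had mean intensities at percentiles 17.9, 14.4 and 5.66. The receptor genes Cxcr1 and Cxcr2 differed by 0.16 (-0.10 to 0.42) and 0.05 (-0.48 to 0.58), at percentiles 27.7 and 11.0. Neutrophil markers went lower in estimate in 8 of 12 and higher in 4, and 0 of 12 passed the test in either direction, with a median difference of -0.11. Among them S100a8, a calcium-binding protein abundant in neutrophils, was 5.51, 6.80 and 5.46 under vehicle and 4.98, 5.31 and 5.08 under TMP195, a difference of -0.80 (interval -1.62 to 0.03). The serine protease genes Prtn3 and Elane, both of myeloid granules, differed by -0.90 (-1.29 to -0.50) and 0.13 (-0.09 to 0.35), with an adjusted p of 1.0 for both in limma. The unadjusted p in limma was 0.00101 for Prtn3 and 0.205 for Elane. S100a8 and Prtn3 lay lower in all 3 TMP195 tumours than in the 3 vehicle tumours, as in 3.21% of all genes. Elane, from a dim row at percentile 27.4, lay higher in all 3, as in 3.47% of all genes. Both S100a8 and Prtn3 were highest in vehicle tumour 2, which stood apart in overall expression. The groups overlapped in S100a9, which differed by -0.23 (-0.60 to 0.15). The summed intensity of the neutrophil list ran from 2075 to 2895 in the vehicle tumours and from 1381 to 2416 in the TMP195 tumours. Most of that sum was Ltf, which encodes lactoferrin, a protein of neutrophil granules and of milk, and which was 10.19 in TMP195 tumour 2 and 10.76 to 11.37 in the other 5. The mean log2 level of the list, in which each gene counts alike, was instead lowest in TMP195 tumour 1, at 4.27, and was 4.45 in TMP195 tumour 2. In whole tumours, fewer cells of a type and less RNA per cell cannot be told apart.

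Cxcl10 had the largest estimate of the 10 genes. It was 4.24, 3.75 and 3.70 under vehicle (tumours 1, 2 and 3) and 4.13, 5.09 and 4.22 under TMP195 (tumours 1, 2 and 3). TMP195 tumour 2 was the highest, while vehicle tumour 1 lay just above the remaining TMP195 tumours, so the groups overlapped. The means were 3.90 ± 0.30 (SD, n = 3) and 4.48 ± 0.53 (SD, n = 3). The difference of 0.58 (interval -0.07 to 1.24; 1.5-fold) had an unadjusted p of 0.0738 and an adjusted p of 1.0 in limma, and an exact two-sided permutation p of 0.30, where 3 tumours against 3 cannot go below 0.10. Cxcl10 was the 1 member at a difference of at least 1.5-fold, which it met with nothing to spare, beside 1.28% of all genes (0.507% higher under TMP195 and 0.772% lower). Without TMP195 tumour 2 the difference was 0.28, and without both tumours that stood apart it was 0.21.

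The promoter of Cxcl10 is shown as an example of one that holds matches to both motifs searched, which is not particular to it. The capitals mark, in the order of the sequence, GAAANNGAA, a core of the interferon-stimulated response element, and GGGANNTTC. Counted back from -1 at the last base before the start, they lie at -213 to -205 and -159 to -151. The 240 bases before the start, from RefSeq, are chr5:92348890-92349129 of GRCm38.p6, written along the minus strand.
Cxcl10: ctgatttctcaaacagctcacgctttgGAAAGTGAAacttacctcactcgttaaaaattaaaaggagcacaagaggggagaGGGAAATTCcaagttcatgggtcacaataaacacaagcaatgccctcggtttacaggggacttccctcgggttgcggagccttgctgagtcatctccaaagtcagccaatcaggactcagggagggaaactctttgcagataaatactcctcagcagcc
GAAANNGAA, also searched on both strands over 250 bases, is found in 7.13% of the promoters.

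Cxcl9, the other interferon-induced ligand of Cxcr3 among the members, was 4.74, 4.15 and 4.76 under vehicle and 4.54, 5.03 and 4.81 under TMP195. Vehicle tumour 2 was the lowest and TMP195 tumour 2 the highest. The difference of 0.24 (interval -0.24 to 0.73) was 0.042 without vehicle tumour 2, 0.12 without TMP195 tumour 2, 0.078 with limma's array weights and -0.079 without both. Cxcl9 and Cxcl10 thus shared their highest tumour. The lowest for Cxcl10 was vehicle tumour 3 (3.70), with vehicle tumour 2 (3.75) nearly level.

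Cxcr3 encodes the receptor of these ligands. It was 3.94, 3.65 and 3.73 under vehicle and 3.82, 3.95 and 3.32 under TMP195, with TMP195 tumour 2 and vehicle tumour 1 nearly level at the top and TMP195 tumour 3 the lowest. The difference was -0.08 (interval -0.50 to 0.35). It turned to 0.113 without TMP195 tumour 3 and to 0.0060 without vehicle tumour 1. The difference was -0.21 without TMP195 tumour 2 and -0.27 without both tumours that stood apart. Cxcl11, which is also a Cxcr3 ligand gene and is listed as a transcribed pseudogene in the RefSeq table of the C57BL/6J assembly, differed by 0.01 (-0.59 to 0.61) and was highest in TMP195 tumour 2 as well. The Cxcl11 row was dim, at percentile 19.5 of mean intensity.

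Cxcl16, a membrane-bound ligand that is shed by Adam10 and binds Cxcr6 on T cells, was among the steadiest. It was 7.88, 7.88 and 7.77 under vehicle and 7.75, 8.08 and 7.76 under TMP195, a difference of 0.02 with an interval of -0.25 to 0.30. Leaving out vehicle tumour 3 (-0.013) or TMP195 tumour 2 (-0.084) turned the sign. Adam10 and Adam17, the proteases that release such ligands, differed by 0.02 (-0.19 to 0.24) and 0.03 (-0.20 to 0.26), and Cxcr6 by 0.08 (-0.41 to 0.56).

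Of 10 measured T cell markers, 5 were higher in estimate and 5 lower under TMP195, with 0 past the test and a median difference of 0.0040. The list's summed intensity ran from 268 to 321 in the vehicle tumours and from 272 to 346 in the TMP195 tumours, and it was highest in TMP195 tumour 2, as were 4 of its 10 genes. Cd3g, a chain of the T cell receptor complex, stood at 5.66 in that tumour against 4.42 to 4.96 in the other 5. Other chains of that complex were mixed. Cd3e was also highest in TMP195 tumour 2 (5.77, against 5.07 to 5.64 in the other 5). Cd247 spanned only 0.18 over the 6 tumours, and TMP195 tumours 1 and 2 were nearly level at the bottom (4.32 in both). Cd3d, from a dim row at percentile 11.6, was 2.62 in TMP195 tumour 2 and 2.85 in vehicle tumour 3. The summed T cell level was thus highest in the tumour with the highest Cxcl9 and Cxcl10, and its part in those levels was not tested.

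Among the inducers and feedback genes of CXC ligand transcription, 12 of 16 measured genes were higher in estimate and 4 lower, with a median difference of 0.074, and 0 passed the test in either direction. Il1b, which encodes interleukin-1 beta, was 5.73, 4.94 and 5.63 under vehicle and 5.79, 6.39 and 6.53 under TMP195. Those groups did not overlap, an order with TMP195 higher that 3.47% of all genes showed, and the difference was 0.80 (interval 0.17 to 1.44), with an unadjusted p of 0.0201 and an adjusted p of 1.0 in limma. Nfkbia and Nfkbiz, both NF-kappaB targets that feed back on it, differed by 0.26 (-0.08 to 0.59) and 0.15 (-0.07 to 0.37). Csf3, the growth factor of neutrophils, differed by -0.34 (-0.77 to 0.10).

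**Figure D2:**
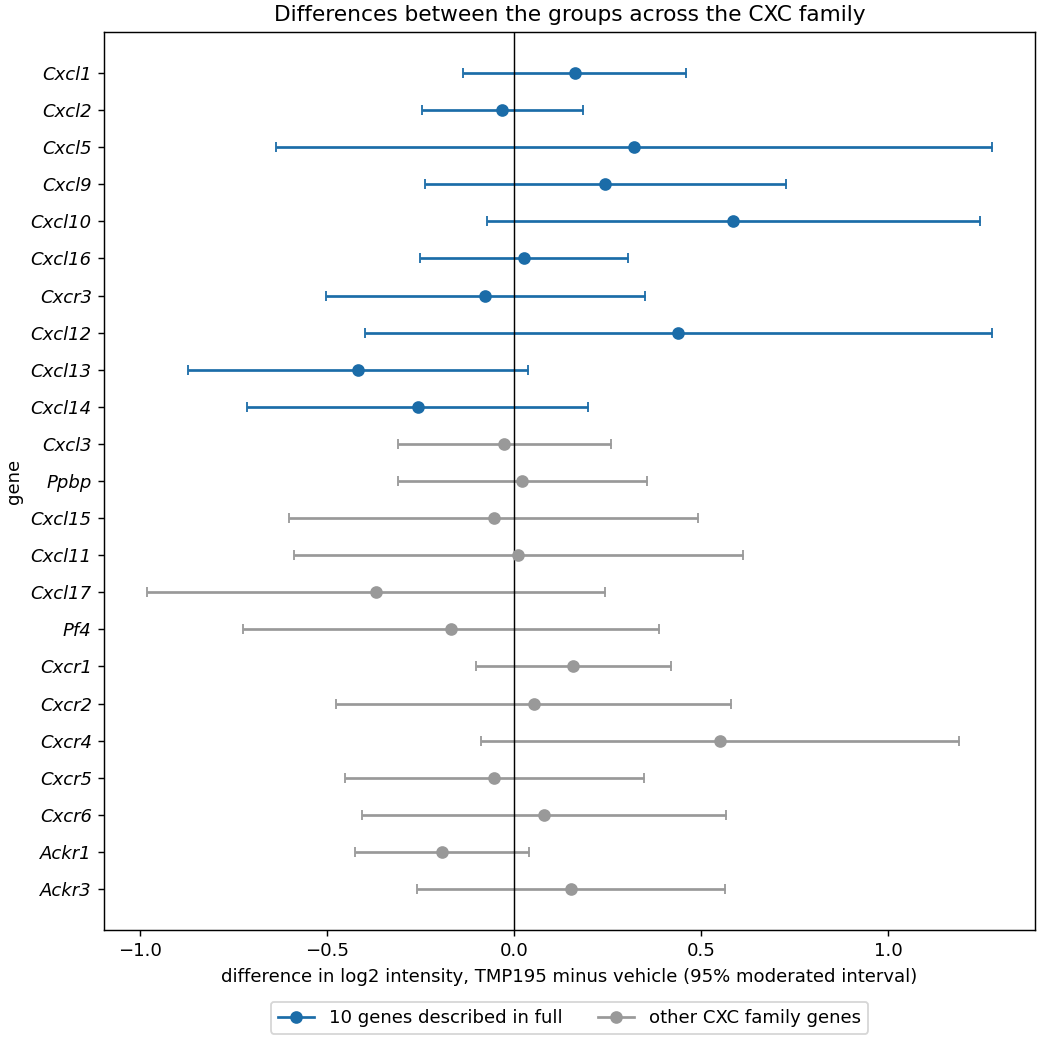
Difference in log2 intensity, TMP195 minus vehicle, with its 95% moderated interval (limma, 3 tumours in each group) for the 10 genes (blue) and the other 13 CXC family genes (grey). All intervals cross 0, and Cxcl10 (0.58), Cxcr4 (0.55) and Cxcl12 (0.44) have the highest estimates and Cxcl13 (-0.42) the lowest.

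Cxcl12, the stromal ligand that retains and guides cells carrying Cxcr4, was 5.89, 5.66 and 6.31 under vehicle (tumours 1, 2 and 3) and 6.19, 7.18 and 5.80 under TMP195 (tumours 1, 2 and 3). TMP195 tumour 2 stood 1.29 above the median of the other 5 tumours, and the other TMP195 tumours lay within the vehicle range. The difference of 0.44 (interval -0.40 to 1.28) was 0.043 without TMP195 tumour 2, 0.026 with limma's array weights and -0.10 without both tumours that stood apart.

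Its receptor gene Cxcr4 was 8.04, 7.09 and 7.96 under vehicle and 8.11, 8.54 and 8.08 under TMP195. All 3 TMP195 tumours lay above the 3 vehicle tumours, though TMP195 tumour 3 and vehicle tumour 1 were nearly level, and the same order of the groups was seen in 3.47% of all genes. The difference of 0.55 (interval -0.09 to 1.19) had an unadjusted p of 0.0808 and an adjusted p of 1.0 in limma, and it was 0.25 without vehicle tumour 2 and 0.097 without both. The scavenger receptor gene Ackr3, which takes up Cxcl12, differed by 0.15 (-0.26 to 0.56) and was also highest in TMP195 tumour 2. Dpp4, which encodes a peptidase that trims and inactivates Cxcl10 and Cxcl12, was 5.94 in that tumour against 7.33 to 8.01 in the other 5, and its group difference was -0.58 (-1.69 to 0.54).

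Fibroblast markers, from cells known to make Cxcl12, were lowest in TMP195 tumour 2 and highest in vehicle tumour 3, the tumours with the highest and the next highest Cxcl12. The mean log2 level of the 8 listed genes was 8.69 in TMP195 tumour 2 and 8.86 to 9.63 in the other 5 tumours, and 4 of the 8 had their lowest level there. Their summed intensity ran from 5545 to 8925 in the vehicle tumours and from 5183 to 8245 in the TMP195 tumours. Dcn and Dpt, both matrix proteins of fibroblasts, were 9.72 and 5.60 in TMP195 tumour 2. Among the 8 fibroblast genes 2 were higher in estimate and 6 lower under TMP195, with a median of -0.090, and 0 passed the test. Endothelial markers, from another cell type known to make Cxcl12, had a summed intensity of 665 to 860 in the vehicle and 799 to 878 in the TMP195 tumours, with 5 of 6 genes higher in estimate and 0 past the test.

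Cxcl13 was the member with the lowest estimate and the smallest unadjusted p. It was 4.94, 4.75 and 5.29 under vehicle and 4.70, 4.24 and 4.78 under TMP195. Vehicle tumour 2 lay below TMP195 tumour 3, so the groups overlapped, although all 3 TMP195 tumours lay below vehicle tumours 1 and 3. The means were 4.99 ± 0.27 (SD, n = 3) and 4.57 ± 0.29 (SD, n = 3). The difference of -0.42 (interval -0.87 to 0.04) had an unadjusted p of 0.0662 and an adjusted p of 1.0 in limma, and an exact two-sided permutation p of 0.20. It kept its sign in every fit with a tumour left out, between -0.54 and -0.25.

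Its receptor gene Cxcr5 was dim, at percentile 7.86, and differed by -0.05 (interval -0.45 to 0.35). B cell markers, from the cells that Cxcl13 attracts, were higher in estimate in 3 and lower in 5 of 8 genes, with a median of -0.034, and 0 passed the test. Their summed intensity was 129 to 143 in the vehicle tumours and 129 to 135 in the TMP195 tumours. Cd79a, a defining chain of the B cell receptor, differed by 0.09 (-0.16 to 0.34), from a dim row at percentile 5.11. Lymphoid tissue genes were higher in estimate in 5 of 6, with 0 past the test, among them Cr2, a complement receptor of B cells and follicular dendritic cells (0.25, interval -0.02 to 0.53), and Ltb, a cytokine of lymphoid tissue (0.31, -0.07 to 0.68). The Cr2 row was dim, at percentile 10.1 of mean intensity.

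Cxcl14, a ligand of epithelium and stroma, was 7.41, 8.06 and 8.05 under vehicle and 7.43, 7.70 and 7.62 under TMP195. Vehicle tumours 2 and 3 were the highest and vehicle tumour 1 the lowest of all, so that the whole TMP195 group lay within the vehicle range. The difference was -0.26 (interval -0.71 to 0.20), -0.15 without vehicle tumour 2 or vehicle tumour 3, and -0.48 without vehicle tumour 1. Among further ligand genes, Cxcl17, made by mucosal epithelium, differed by -0.37 (-0.98 to 0.24), and Pf4, a platelet ligand, by -0.17 (-0.72 to 0.39). Ackr1, the chemokine-binding receptor of venules and red cells, lay lower in all 3 TMP195 tumours than in the 3 vehicle tumours, as in 3.21% of all genes, with a difference of -0.19 (-0.43 to 0.04) and an adjusted p of 1.0 in limma.

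Over the 13 CXC family genes beside the members, 7 were higher in estimate and 6 lower under TMP195, and limma called 0 in either direction. TMP195 tumour 2 held the highest level of 5 of these 13 and the lowest of 1, Cxcl17.

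**Figure D3:**
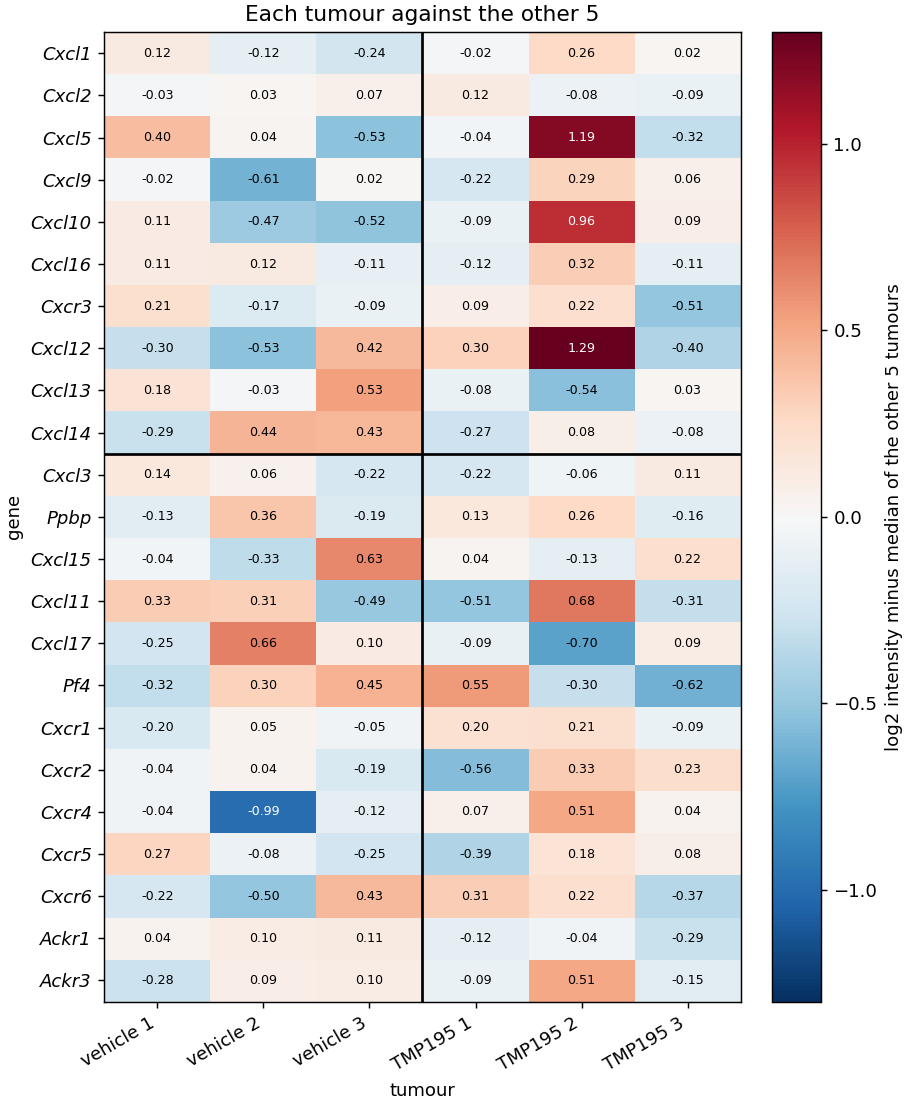
Log2 intensity of each gene in a tumour minus its median in the other 5 tumours, with the 10 members above the horizontal line and the other family genes below it. The column of TMP195 tumour 2 holds the highest values, 1.29 for Cxcl12, 1.19 for Cxcl5 and 0.96 for Cxcl10, and the lowest value is Cxcr4 in vehicle tumour 2 (-0.99).

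The 4 members that spanned at least 2-fold were also set against other genes, by the root mean square difference of mean-centred log2 levels over the 6 tumours, among 13299 genes at or above the 30th percentile of mean intensity. Closest to Cxcl12 were Qpct, which encodes glutaminyl cyclase (0.11), AW112010 (0.13) and Cavin2, a protein of caveolae (0.14). Qpct was 5.86, 5.93 and 6.38 under vehicle and 6.18, 7.31 and 6.01 under TMP195, with the same tumour on top. Closest to Cxcl10 were Cep112 (0.11), the serine protease gene Klk8 (0.12) and Dpysl5 (0.12), and closest to Cxcl5 were Trp53i11 (0.14), the phosphatase gene Ptpre (0.16) and Epb41l4a (0.16). Closest to Cxcl13 were Mmd (0.087), Egflam (0.098) and the keratin gene Krt79 (0.10), each lowest in TMP195 tumour 2. TMP195 tumour 2 was at one end of the span in all 4 members. The closest genes are given as a description, without a test.

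**Figure D4:**
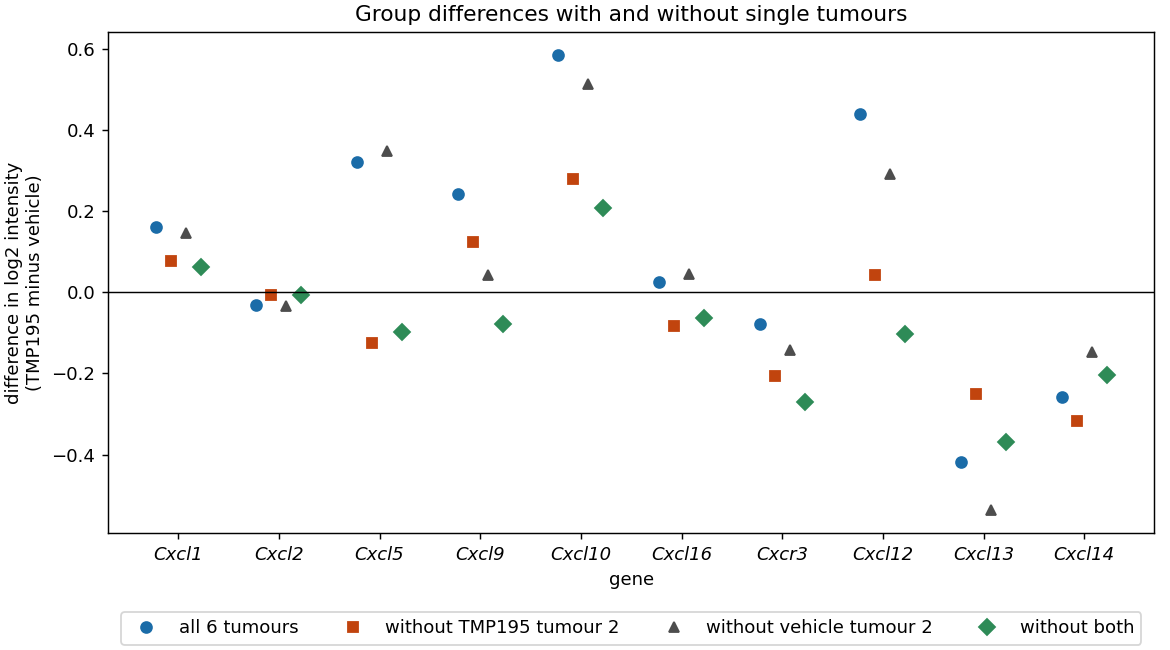
Difference in log2 intensity, TMP195 minus vehicle, for the 10 genes with all 6 tumours, without TMP195 tumour 2, without vehicle tumour 2 and without both. Without both, 2 of the 10 differences lie above 0 and 8 below, against 6 and 4 with all tumours.

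The labelled tissue was checked on epithelial markers of the mammary gland. The luminal keratin gene Krt8 lay between 10.66 and 10.86 in all 6 tumours, while Csn2, which encodes a milk casein, was 6.03 in TMP195 tumour 2 and 9.86 to 11.82 in the other 5. The low mean of the epithelial list in TMP195 tumour 2 includes that Csn2 value. Of the 7 epithelial genes 3 were lowest in that tumour, Csn2, Elf5 (10.70) and Epcam (10.03), and 2 were highest, Krt19 and Cdh1. Epcam and Cdh1 spanned only 0.11 and 0.10 over the 6 tumours. Adipocyte markers had summed intensities of 1249 to 5888 in the vehicle and 231 to 3810 in the TMP195 tumours, with 7 of 8 genes lowest in TMP195 tumour 2. Skeletal muscle markers reached 2820 in vehicle tumour 2 and 235 to 323 in the other 5 tumours. Macrophage markers summed to 3309 to 3802 in the vehicle and 3095 to 3390 in the TMP195 tumours, and dendritic cell markers to 205 to 207 and 178 to 242. In estimate, 9 of 9 macrophage genes were lower under TMP195, with a median difference of -0.12. So were 4 of 7 dendritic cell genes, 8 of 8 adipocyte genes and 7 of 7 muscle genes. In each of these lists 0 genes passed the test. The part of these tissues in the chemokine levels was not tested.

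**Figure D5:**
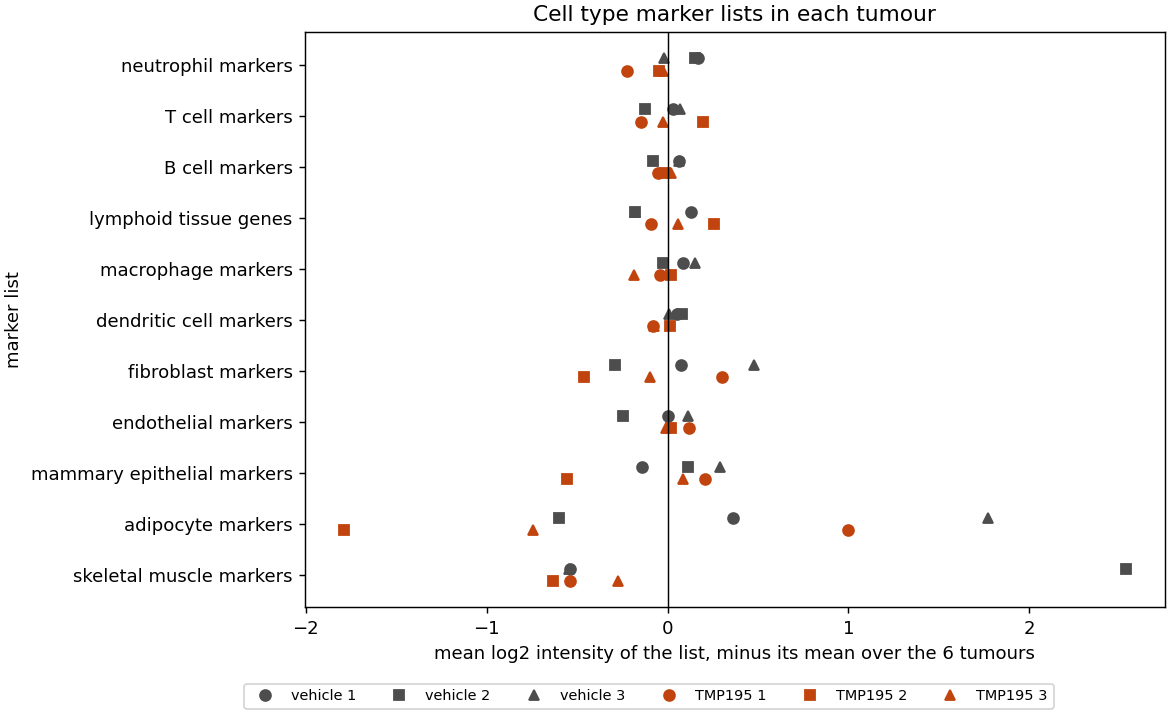
Mean log2 intensity of 11 marker lists in each tumour, minus the list's mean over the 6 tumours (grey, vehicle; orange, TMP195; symbols as in the plot of single genes). The square of the TMP195 group lies lowest for adipocyte, fibroblast and epithelial markers (the last with Csn2 in the list) and highest for T cell markers and lymphoid tissue genes, and the square of the vehicle group lies far above the rest for skeletal muscle markers.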

How the data were processed

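Whole-tumour RNA of 6 mice was hybridised to Affymetrix arrays, 1 array per mouse. The deposited values are array signal intensity, for which the submitters' processing notes name RMA and Affymetrix Power Tools as what the authors used. Their versions, filters, scale and centring are not stated in the labels or the file. The intensities were taken as linear, since the column medians were 44.8 to 46.4 and the highest values 8137 to 8873, and log2 of the deposited intensity was analysed. Quantile normalization, a usual step of RMA, would hide a shift of most genes. Rows were named through the platform annotation and Entrez IDs. Of 27359 rows, 21784 had 1 symbol, 1620 several and 3955 none, and the row with the highest mean stood for a gene. Tumours were grouped by title. Limma 3.58.1 in R 4.3.3 (lmFit, eBayes, two-sided, no covariate) was fitted to all 19937 genes with Benjamini-Hochberg adjustment, and tested on simulated data. Permutation tests were exact over tumours. The members, lists and tests were chosen with earlier results of these data known. The rule for named genes took the 10 members, every other CXC family gene, up to 4 genes per list by unadjusted p, and 3 closest patterns per member. Genes outside it were chosen after their values were seen. Python 3.11.15, pandas 2.3.3, numpy 2.4.6 and matplotlib 3.10.9 were used. Alternatives were cyclic loess, median centring, a pseudocount of 16, a replicate block, a robust trended prior, leaving out genes below the 30th percentile, every row tested, array weights and leaving tumours out. The number of arrays limits the precision. Some items of the lists and sequences are not reported here.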

Additional observations from a re-analysis of the deposited data

How the results depend on the processing

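Limma called 0 genes and 0 members at an adjusted p of 0.05 with all 6 tumours as reported and in each alternative that was run. At an unadjusted p under 0.05 it gave 502 genes as reported, 243 with genes of low intensity left out (fewer genes tested) and 936 with array weights, and between 504 and 669 with single tumours left out. This count across alternatives was added after seeing the data. The replicate number as a block gave 397 genes and 0 called. Same-numbered tumours did not deviate together, with correlations across genes of -0.21, -0.063 and -0.097, so the numbers are not taken as pairs. The members' median difference lay between -0.045 and 0.16 with single tumours left out and was 0.0092 with array weights. Without both tumours 2, Cxcl5 (-0.097), Cxcl9 (-0.079), Cxcl11 (-0.17), Cxcl12 (-0.10), Cxcl16 (-0.063), Cxcl17 (0.073), Cxcr2 (-0.069) and Cxcr6 (-0.13) turned, and array weights turned Cxcl3 (0.053), Cxcl16 (-0.0070) and Cxcr6 (-0.14). The cause was not tested. With single tumours left out, differences that turned ran from -0.12 to 0.61 in Cxcl5, -0.084 to 0.081 in Cxcl16, -0.21 to 0.11 in Cxcr3, -0.11 to 0.045 in Cxcl3, -0.057 to 0.15 in Ppbp, -0.26 to 0.20 in Cxcl15, -0.25 to 0.19 in Cxcl11, -0.41 to 0.033 in Pf4, -0.11 to 0.32 in Cxcr2, -0.16 to 0.092 in Cxcr5, -0.086 to 0.27 in Cxcr6 and -0.027 to 0.26 in Ackr3. TMP195 tumour 2 turned Cxcl5, Cxcl16, Cxcl11, Cxcl15, Cxcr2, Ackr3 and Ppbp. Vehicle tumour 3 turned Cxcl11, Cxcl15, Cxcl16, Cxcr2 and Ppbp, and vehicle tumour 1 turned Cxcl3, Cxcr3, Cxcr5 and Ppbp. TMP195 tumour 1 turned Cxcl3, Cxcr5 and Cxcr6, TMP195 tumour 3 turned Cxcr2, Cxcr3 and Pf4, and vehicle tumour 2 turned Cxcr6. Median centring, cyclic loess, the pseudocount, the prior, the block and testing every row turned no difference among the 23 CXC family genes. The other rows of the same gene could not be tried for the members, which have 1 row each. A pseudocount of 16 took Cxcl10 to 0.32, Cxcl5 to 0.13, Cxcl9 to 0.15 and Cxcl13 to -0.26. Cxcl2, Cxcl5 and Cxcr3 lie below the intensity limit and have no value there.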

Other observations

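Some inducer and feedback genes of CXC ligands, and Cd4, were looked at in TMP195 tumour 2 after their values were seen. Of the 16 measured inducer and feedback genes 5 were highest there and 1 lowest, beside 25.4% and 22.4% of all genes. Il1b was highest in TMP195 tumour 3, and Il1a, Il17a, Csf2 and Csf3 were each highest in a vehicle tumour. Tnf, which encodes tumour necrosis factor, was 5.64 in TMP195 tumour 2 against 4.66 to 5.11 in the other 5 tumours. Its group difference was 0.16 (95% interval -0.40 to 0.71, limma, not called). Irf1, an interferon-induced transcription factor, was also highest there, at 7.74 against 7.45 to 7.61. Ifng, which encodes the interferon that induces Cxcl9, was 4.01 in that tumour and 3.64 to 4.02 in the other 5, from a dim row at percentile 28.6 of mean intensity. Cd4 was 5.57 in TMP195 tumour 2 and 5.46 in vehicle tumour 1, and 4.65 to 4.96 in the remaining tumours.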
